A study of Mus musculus with 9 samples.

Results

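Gene expression in adipose tissue was compared between the electroacupuncture group (EA, libraries 5, 7 and 8) and the group whose titles begin with CPX (libraries 4, 6 and 8). These 6 of the 9 libraries of the series were taken by their labelled group and fitted alone, and the comparison covers 3958 listed genes. Total RNA of male mice of the inbred strain C57BL/6J, taken at day 21, was sequenced. Electroacupuncture passes a current through acupuncture needles. The series title names obesity from a high-fat diet (HFD), and its design text names a normal diet, a high-fat diet, and a high-fat diet with electroacupuncture. The labels mark a treatment for the EA libraries only and do not say which diet CPX stands for. The prefix is therefore kept, and the diet of CPX is left unnamed. Since the design text pairs electroacupuncture with a high-fat diet, EA and CPX may differ in diet as well as in treatment. Such differences cannot be told apart here. Age and fat depot are not given. Although every library is labelled adipose tissue, the extraction text describes the removal of retinas. The labels do not say that the libraries came from separate mice, so the p-values reflect only how these libraries vary, which may in part be technical.

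White adipose tissue stores triglyceride in adipocytes, which either take up fatty acids or build them from acetyl-CoA. In the second route ATP citrate lyase makes acetyl-CoA, acetyl-CoA carboxylase and fatty acid synthase build palmitate, the elongase Elovl6 lengthens it, and stearoyl-CoA desaturases add a double bond. Between the adipocytes lie vessels, fibroblasts, macrophages and mast cells, and some fat depots hold lymph nodes and other lymphoid clusters rich in B cells. The makeup of a piece of fat therefore varies with where it is cut.

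The CPX libraries stood apart from each other far more than the EA libraries did. Levels are given as CPM, counts relative to the TMM-scaled total of the listed genes, and spread was measured on log2(CPM + 1). The SD over 3 libraries was larger in CPX than in EA for 3670 of 3958 genes (92.7%). Its median over genes was 0.63 in CPX and 0.21 in EA. For 2475 genes (62.5%) all EA libraries lay between the lowest and the highest CPX library, while the converse held for 78 genes (1.97%). The highest CPX library was at least 4-fold above the lowest for 962 genes (24.3%), against 44 genes (1.11%) within EA. CPX 6 was the library farthest from the CPX median for 2080 genes, CPX 4 for 1141 and CPX 8 for 737.

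CPX 4 and CPX 6 departed from EA in different ways. CPX 4 was at least 2-fold above every EA library for 273 genes and at least 2-fold below every one for 339. CPX 6 was above for 145 genes and below for 465, and CPX 8 for 23 and 66. Leaving out CPX 6 lowered the number of genes with a larger SD in CPX to 2708, and without CPX 4 it was 3273. These counts set fewer CPX libraries against all EA libraries, which by itself can lower the number. The listed counts of the 6 libraries summed to 12115183 to 14027981, so these totals were much alike. CPX 4 had a TMM factor of 0.747, against 0.978 to 1.11 in the others, and a mitochondrially encoded share of 11.8% of its listed counts, against 3.34% to 5.93%.

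Cell type markers also differed among the CPX libraries, and which library stood out varied with the cell type. Summed over 8 adipocyte markers, the level was 74486 CPM in CPX 4, 5189 in CPX 6 and 26974 in CPX 8, and it was 31758, 26461 and 23635 in EA 5, 7 and 8. Adipocyte transcripts were thus listed in every library, at their lowest in CPX 6. Over 6 B cell markers the sum was 9.26, 2687 and 23.7 CPM in CPX 4, 6 and 8, and 474, 716 and 1384 in EA 5, 7 and 8. B cell transcripts were near the bottom of the scale in CPX 4 and CPX 8 and above 400 CPM in all 3 EA libraries and in CPX 6. In bulk tissue, fewer cells of a type and less RNA per cell cannot be told apart. None of the 4 T cell markers checked, and no marker of skeletal muscle, mesothelium, epididymis and testis, or retina was among the listed genes, so these were not analysed here. Of a longer T and NK cell list 1 gene was listed, Thy1, which fibroblasts also express.

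**Figure D1:**
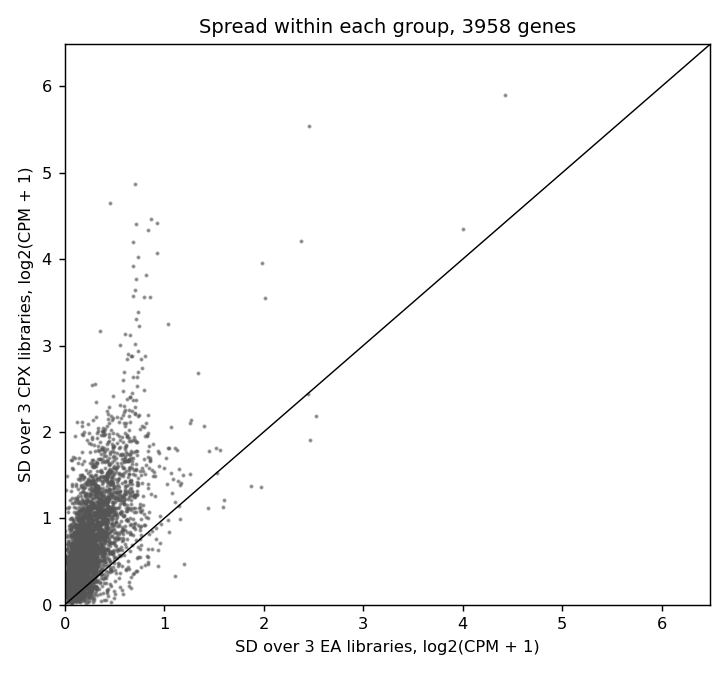
SD of log2(CPM + 1) over the 3 CPX libraries (vertical axis) against the SD over the 3 EA libraries (horizontal axis), 1 point for each of 3958 genes, with the line of equal SD. Of these points, 3670 lie above the line.

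Gene lists were compared by their level in each library, which shows which CPX library sets each difference. Adipocyte identity genes were lowest in CPX 6 (−2.22) and highest in CPX 4 (1.18), with EA at −0.40 to 0.50.

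**Figure D2:**
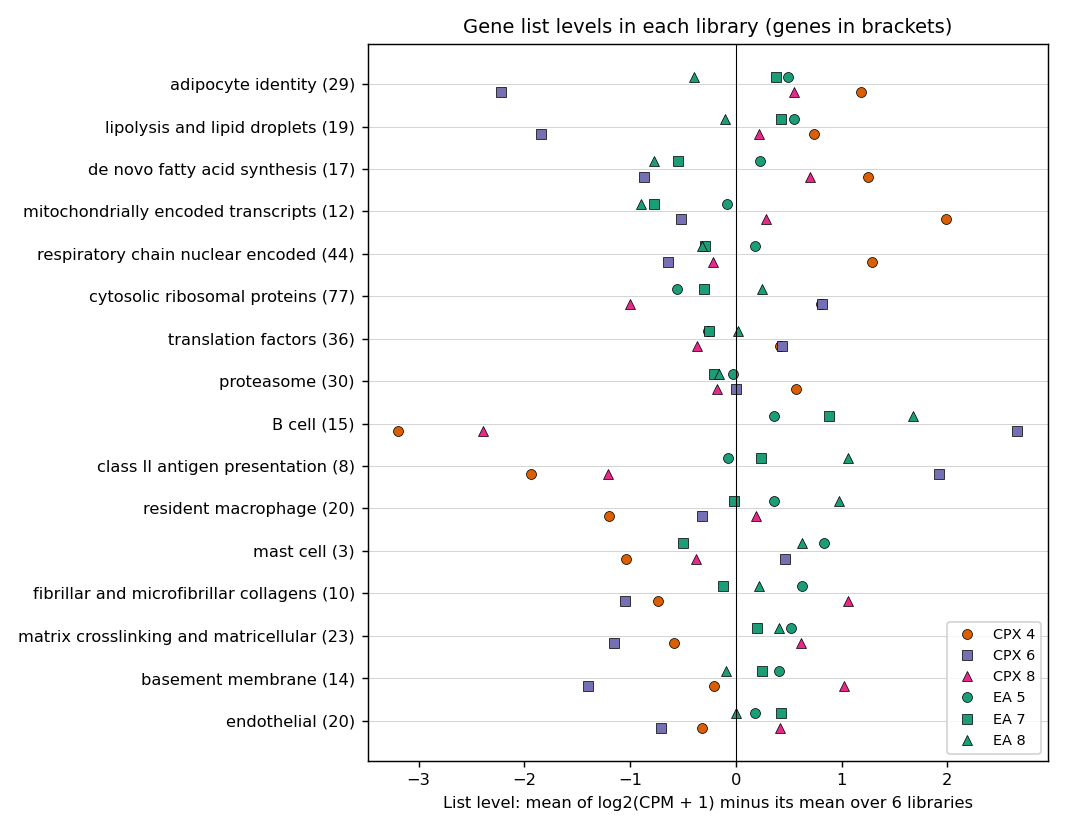
Level of gene lists in each library, as the mean of log2(CPM + 1) over the members minus its mean over the 6 libraries (horizontal axis), 1 row per list with its number of listed genes in brackets. In most rows the EA points lie between the outermost CPX points, as for B cell genes, where CPX 4 is at −3.19, CPX 6 at 2.66 and EA at 0.36 to 1.68.

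Between EA and CPX, 0 of 3958 genes passed an adjusted p of 0.05 in edgeR's quasi-likelihood test (0%), where the smallest value was 0.999. An unadjusted p below 0.05 was reached by 40 genes (1.01%), of which 20 were higher and 20 lower in EA (0.505% each). Evenly spread p-values would put a share of 0.05 there, which is more. DESeq2 called 4 genes, and limma voom called 0. The common dispersion of 0.22, pooled over both groups, corresponds to a coefficient of variation of 46.9%, which edgeR calls biological. The test assumes the same dispersion for a gene in both groups, although the spread was larger in CPX for most genes. The ranges of EA and CPX did not overlap for 283 genes (7.15%), with EA above for 86 (2.17%) and below for 197 (4.98%). A random split of 3 libraries against 3 separates a gene with probability 0.1, so ranges that do not overlap are no sign of a difference by themselves. The median log2 difference over all genes was −0.09, with 38.6% of genes positive and 61.4% negative. Without a scaling factor the median was 0.10 and 63.4% were positive, and with upper quartile scaling they were 0.03 and 53.8%. List medians with TMM and all 6 libraries are thus to be read against −0.09, and others against the value of their own setting. Over all genes the median was −0.03 without CPX 4, −0.04 without CPX 6 and −0.13 without CPX 8, with 45.9%, 47.0% and 38.8% positive. Without both CPX 4 and CPX 6 it was −0.0025 with 49.8% positive, and without EA 8 it was −0.11 with 37.6% positive.

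The number of genes at a low p depended on which CPX libraries entered. Without CPX 6, 560 genes had an unadjusted p under 0.05 and the smallest adjusted p of edgeR was 0.0507, still short of the threshold. Without CPX 8 there were 250 such genes, and without CPX 4 there were 48. Leaving out EA 5, EA 7 or EA 8 gave 17, 12 and 13.

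The gene with the smallest p was Elovl6, the elongase that turns palmitate into stearate (chromosome 3, 129532355 to 129638495, mm10). Its level was 328, 85.1 and 215 CPM in CPX 4, 6 and 8, and 36.0, 12.5 and 15.8 CPM in EA 5, 7 and 8. Every EA library lay below every CPX library, and the part of adipocyte content in this difference was not tested. The means were 21.5 ± 12.7 CPM in EA and 209 ± 121 in CPX (SD, n = 3 each). The log2 difference was −3.28 (SE 0.66), a 9.75-fold lower level, with an unadjusted p of 0.00208 (edgeR adjusted p = 0.999). DESeq2 put its adjusted p at 4.64e-05, and the log2 difference was −2.79 without CPX 4 and −3.67 without CPX 6.

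Pltp, the phospholipid transfer protein that moves lipids between lipoproteins, had the smallest p among genes higher in EA (chromosome 2, 164839518 to 164857711). It stood at 94.0, 95.4 and 233 CPM in CPX 4, 6 and 8, and at 471, 424 and 641 CPM in EA 5, 7 and 8. The groups did not overlap, and CPX 4 and CPX 6 were alike for this gene. Its log2 difference was 1.86 (SE 0.47), with an unadjusted p of 0.00655. DESeq2 gave it an adjusted p of 0.0353.

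Fkbp5, a co-chaperone of the glucocorticoid receptor whose transcription glucocorticoids raise, varied little inside either group (chromosome 17, 28399094 to 28517527). It measured 118, 105 and 126 CPM in CPX 4, 6 and 8, and 187, 222 and 214 CPM in EA 5, 7 and 8. The log2 difference was 0.84 (SE 0.24), and it stayed between 0.77 and 0.90 with any 1 CPX library left out. Zfp598, a ubiquitin ligase that acts on stalled ribosomes (chromosome 17, 24669752 to 24682015), was even tighter. Its level was 64.2, 66.1 and 66.3 CPM in CPX 4, 6 and 8, and 95.5, 106 and 97.7 CPM in EA 5, 7 and 8, a log2 difference of 0.60 (SE 0.18). DESeq2 adjusted p-values were 0.0275 for Fkbp5 and 0.0353 for Zfp598.

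Because these 4 genes were the ones DESeq2 called, the 250 bases upstream of their RefSeq start sites (GRCm38.p6) are shown, each 5′ to 3′ on the strand of the gene. Capitals mark CACGTG, the E-box core, and CCAAT, each searched on both strands (ATTGG is CCAAT on the other strand).
Elovl6: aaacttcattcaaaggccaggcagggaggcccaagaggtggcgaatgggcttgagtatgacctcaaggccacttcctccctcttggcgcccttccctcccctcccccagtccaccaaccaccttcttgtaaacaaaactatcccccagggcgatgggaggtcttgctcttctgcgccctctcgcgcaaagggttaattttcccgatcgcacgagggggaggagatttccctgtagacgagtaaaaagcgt
Fkbp5: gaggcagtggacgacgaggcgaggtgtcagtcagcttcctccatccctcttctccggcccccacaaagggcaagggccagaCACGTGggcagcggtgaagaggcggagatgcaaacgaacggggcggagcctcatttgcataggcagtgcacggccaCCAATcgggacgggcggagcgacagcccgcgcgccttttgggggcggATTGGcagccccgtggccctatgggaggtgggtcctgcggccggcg
Pltp: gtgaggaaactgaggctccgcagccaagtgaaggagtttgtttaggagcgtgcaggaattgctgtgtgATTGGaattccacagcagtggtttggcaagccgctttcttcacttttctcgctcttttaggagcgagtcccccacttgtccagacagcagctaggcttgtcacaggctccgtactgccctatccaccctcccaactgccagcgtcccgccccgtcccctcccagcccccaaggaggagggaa
Zfp598: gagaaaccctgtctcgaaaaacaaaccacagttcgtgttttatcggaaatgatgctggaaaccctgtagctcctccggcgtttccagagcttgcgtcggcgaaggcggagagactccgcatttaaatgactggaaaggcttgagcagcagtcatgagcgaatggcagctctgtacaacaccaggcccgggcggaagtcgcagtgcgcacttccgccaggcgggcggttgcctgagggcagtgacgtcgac
The windows are chr3:129532136-129532385 (plus strand), chr17:28486150-28486399 (minus), chr2:164857709-164857958 (minus) and chr17:24669437-24669686 (plus). The Fkbp5 window lies inside the longer gene span of the deposited table, since RefSeq places the start further in. The window of Fkbp5 held 1 CACGTG and 2 CCAAT matches, that of Pltp 1 CCAAT, and those of Elovl6 and Zfp598 none of either. Over all 32851 RefSeq windows of this length, 6.02% held CACGTG and 33.8% held CCAAT. Among the 4074 windows of listed genes the shares were 8.57% and 33.3%. These matches are thus a description of the letters only.

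By the naming rule, the 10 genes of smallest p in each direction were listed, none past the threshold. Beside Pltp, Fkbp5 and Zfp598, those higher in EA were Adcy5, Noct, Sox18, Cyp4b1, Ninj1, Gpnmb and Thbs2. Adcy5, an adenylyl cyclase that makes cyclic AMP, was at 79.5, 56.5 and 136 CPM in CPX 4, 6 and 8 and at 265, 305 and 176 CPM in EA 5, 7 and 8 (log2 difference 1.45, SE 0.42). Noct, the rhythmic phosphatase nocturnin, was at 35.0, 22.4 and 43.6 CPM in CPX and at 106, 61.7 and 71.4 CPM in EA, in the same library order (1.24, SE 0.36). Neither overlapped, although the lowest EA library of Adcy5 lay close to CPX 8. Gpnmb, a glycoprotein of lipid-laden macrophages, was at 37.0, 14.3 and 90.7 CPM in CPX 4, 6 and 8. In EA 5, 7 and 8 it was at 103, 149.9 and 436 CPM, a log2 difference of 2.28 (SE 0.84). The high value of EA 8 sets much of that mean, and the gap between EA 5 and CPX 8 was small. Sox18, a transcription factor of endothelial cells, Cyp4b1, a cytochrome P450, and Ninj1, a membrane protein of cell rupture, differed by 0.75, 0.85 and 0.82.

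The 10 genes of smallest p that were lower in EA were Elovl6, Pdk1, Scd2, Blmh, Kpna3, Mbp, mt-Nd6, mt-Co3, Sub1 and Cops2. Names of predicted genes were skipped, as was the related-sequence copy Vcp-rs (−0.78, unadjusted p = 0.00933), whose reads may be shared with Vcp. Pdk1, the kinase that shuts off pyruvate dehydrogenase, was at 171, 131 and 84.2 CPM in CPX 4, 6 and 8 and at 68.0, 56.7 and 58.3 CPM in EA 5, 7 and 8 (−1.08, SE 0.32). EA was tight for this gene and CPX covered a 2.02-fold range. Kpna3, an importin that carries cargo into the nucleus, was at 106, 112 and 88.1 CPM in CPX and at 65.2, 65.6 and 70.8 CPM in EA (−0.60, SE 0.20). Blmh, a cysteine peptidase, Mbp, myelin basic protein, and Cops2, a subunit of the COP9 signalosome, differed by −0.65, −1.02 and −0.98 without overlap. Sub1, a transcription coactivator, overlapped, with CPX 8 and EA 8 both at 72.3 CPM (−0.94, SE 0.35). Of the 20 named genes of both directions 18 had ranges that did not overlap, and 20 of 20 kept one direction under all 18 other settings tried, the leaving out of each library included. Both counts say little about stability, because the genes were picked for a small p in these same libraries. Groups that do not overlap cannot change direction when 1 library is left out under the same scaling. The filters, the robust option and the minimum fold left the median difference over all genes at −0.09 and are no check of direction.

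**Figure D3:**
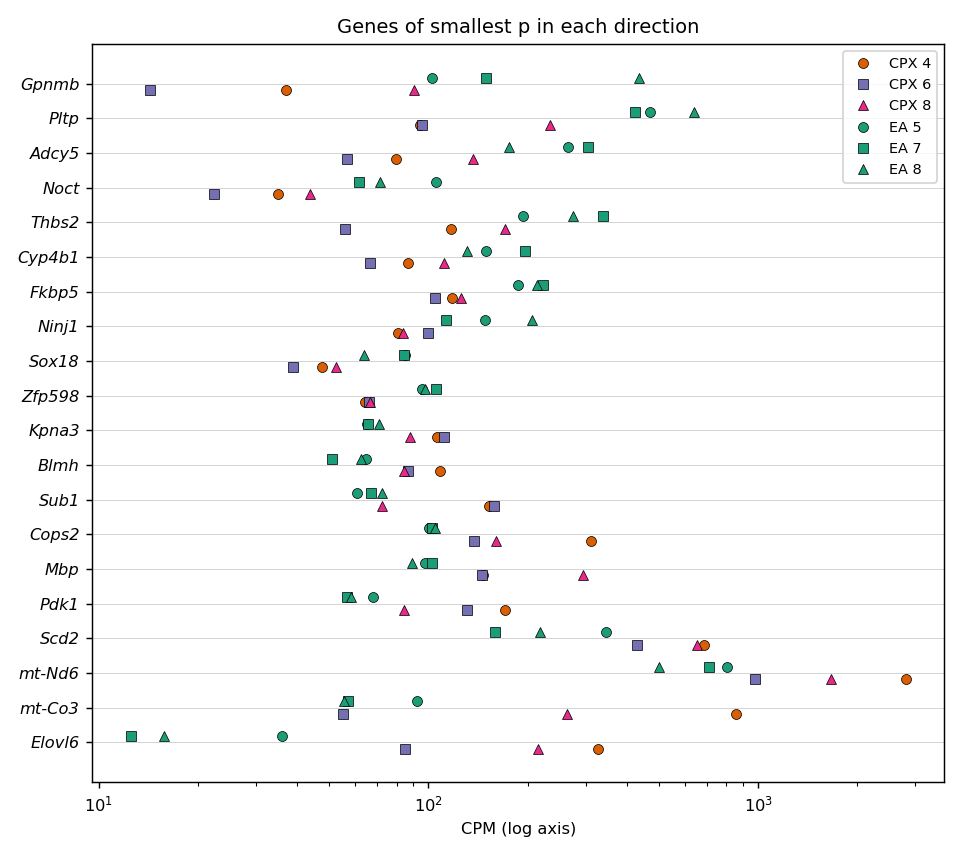
Level in CPM (log axis) of the 20 genes of smallest p, 10 higher and 10 lower in EA, with 1 point per library, CPX libraries in separate colours and EA libraries in 1 colour. The groups are separate for 18 of 20 genes, and none of the 20 passed the adjusted threshold.

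The widest gaps between non-overlapping groups brought in a few more genes. Zswim8, part of a ubiquitin ligase that degrades microRNA-bound Argonaute, was at 141, 144 and 148 CPM in EA 5, 7 and 8 and at 59.3, 111 and 116 CPM in CPX 4, 6 and 8 (log2 difference 0.60, SE 0.32). B2m, the light chain of class I histocompatibility molecules, was at 3321, 3530.1 and 2947 CPM in CPX 4, 6 and 8 and at 2139.7, 1958 and 2372 CPM in EA 5, 7 and 8 (−0.60, SE 0.41). Tmem30a, a flippase subunit, and Dhx40, a helicase, differed by −0.50 and −0.47. Tgm2, transglutaminase 2, and Map7d1, a microtubule-binding protein, differed by 0.59 and 0.56. Each of these differences was below 1 on the log2 scale, and none passed the adjusted threshold.

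The de novo fatty acid synthesis list was lower in EA at its median but for the most part inside the CPX spread. Of 17 listed members 14 were negative and 3 positive, with a median log2 difference of −1.10 against −0.09 for all genes. Elovl6, Scd2 and Acly had an unadjusted p under 0.05, all lower in EA, as did 0.505% of all genes. Only Elovl6 and Scd2 did not overlap, against 4.98% of all genes with EA below. Scd2, a desaturase, was at 687, 428 and 651 CPM in CPX 4, 6 and 8 and at 345, 159 and 218 CPM in EA 5, 7 and 8 (−1.29, SE 0.42). Acly, ATP citrate lyase, was at 1999.5, 508 and 1068 CPM in CPX and at 589, 234 and 294 CPM in EA, so that EA 5 lay above CPX 6 (−1.68, SE 0.65). Acss2, which makes acetyl-CoA from acetate, overlapped in the same way, with EA 5 at 166 CPM and CPX 6 at 97.3 (−1.80, SE 0.78).

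The synthase and the main desaturase spread widely in both groups. Fasn, fatty acid synthase, was at 11912, 2145 and 11367 CPM in CPX 4, 6 and 8 and at 6790.4, 1505 and 1895 CPM in EA 5, 7 and 8 (log2 difference −1.32, SE 0.91). EA 5 was nearer to CPX 4 and 8, and EA 7 and 8 nearer to CPX 6. Scd1 was at 57229, 10631 and 51324 CPM in CPX and at 25530.0, 20273 and 2144 CPM in EA (−1.31, SE 1.07), and Acaca, acetyl-CoA carboxylase 1, differed by −1.09 (SE 0.70). Acacb, the carboxylase linked to the control of fatty acid oxidation, and Srebf1, the transcription factor of lipogenic genes, lay on the other side. Srebf1 was at 651, 225 and 481 CPM in CPX 4, 6 and 8 and at 694, 581 and 617 CPM in EA 5, 7 and 8 (0.48, SE 0.46), and Acacb differed by 0.71 (SE 0.58). The list median was −0.19 without CPX 4, −1.53 without CPX 6 and −1.05 without CPX 8. Summed adipocyte markers moved with the list inside CPX, at 74486 CPM in CPX 4 and 5189 in CPX 6, and their part in the difference was not tested.

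**Figure D4:**
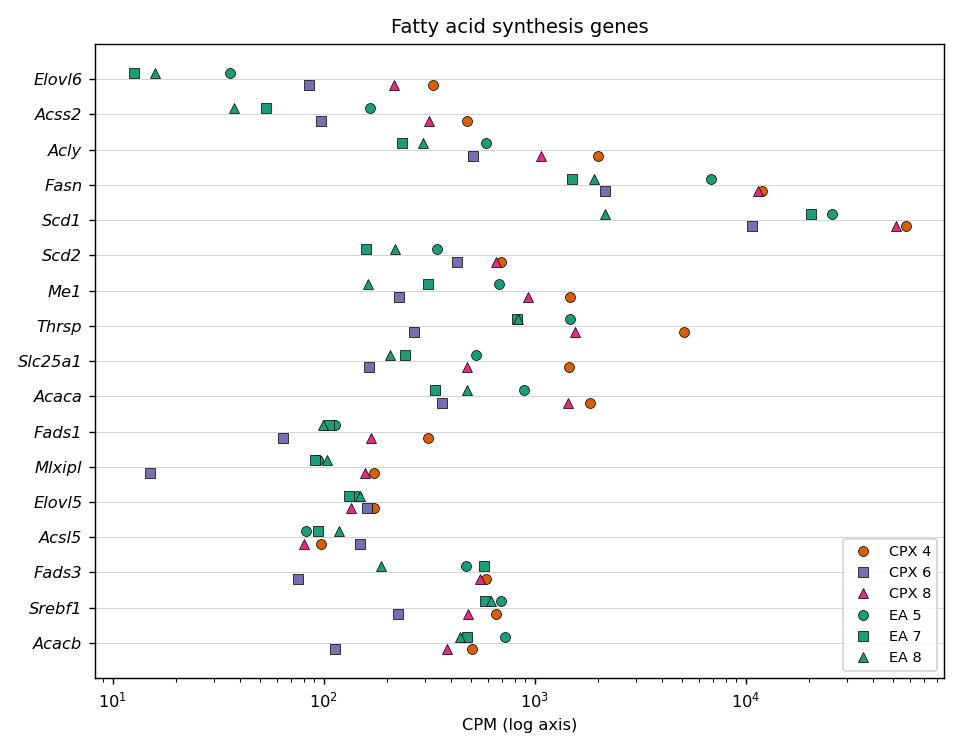
Level in CPM (log axis) of the 17 listed genes of fatty acid synthesis, 1 row per gene and 1 point per library, with CPX libraries in separate colours and EA libraries in 1 colour. Elovl6 and Scd2 are the rows in which every EA library lies left of every CPX library, and for Elovl6 the gap runs from 36.0 to 85.1 CPM.

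Transcripts made in mitochondria were all lower in EA, with CPX 4 far above the rest. All 12 listed members of this list were negative, against 61.4% of all genes, with a median of −1.39. Of these, mt-Nd6, mt-Co3 and mt-Atp6 had an unadjusted p under 0.05 (0.505% of all genes in this direction). The 3 that did not overlap were mt-Nd6, mt-Rnr2 and mt-Nd5 (4.98% of all genes had EA below). mt-Nd6, a complex I subunit, was at 2804, 976 and 1661 CPM in CPX 4, 6 and 8 and at 805, 709 and 501 CPM in EA 5, 7 and 8 (−1.43, SE 0.53). mt-Rnr2, the large mitochondrial ribosomal RNA, was at 1650.3, 322 and 462 CPM in CPX and at 292, 286 and 265 CPM in EA (−1.53, SE 0.67). mt-Nd5 also did not overlap (−1.13, SE 0.55). mt-Co1, a cytochrome oxidase subunit, was at 67609 CPM in CPX 4 and at 17737 and 24531 in CPX 6 and 8, and EA 5 at 22588 fell between the latter (−1.12, SE 0.72). The medians without CPX 4, 6 and 8 were −0.44, −1.75 and −1.50. mt-Co3 (−2.52) and mt-Atp6 (−2.62) share sequence with nuclear copies, and mt-Nd6 is read from the opposite strand to its neighbours. Counts are thus uncertain for all 3 members with an unadjusted p under 0.05.

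Nuclear respiratory chain genes differed less and hinged on the same library. Of 44 listed genes 43 were negative, with a median of −0.47, and 0 had an unadjusted p under 0.05. Ndufb9, a complex I subunit, was at 355, 38.8 and 85.1 CPM in CPX 4, 6 and 8 and at 74.3, 48.5 and 55.8 CPM in EA 5, 7 and 8 (−1.42, SE 0.79). CPX 4 was alone at the top. Without CPX 4 the list median was 0.33, with 39 of 44 positive, so the sign turned with that library, and with no scaling factor and all 6 libraries the median was −0.12.

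Genes of protein synthesis and breakdown leaned the same way. Of 77 cytosolic ribosomal protein genes 75 were negative, with a median of −0.66 and 0 at an unadjusted p under 0.05. The list level, centred over the 6 libraries on the log2 scale, was 0.81, 0.81 and −1.0 in CPX 4, 6 and 8 and −0.56, −0.30 and 0.24 in EA 5, 7 and 8. CPX 8 thus lay below every EA library, opposite to the other CPX libraries, and without CPX 4 and CPX 6 the median was 0.83 with 77 of 77 positive. Rpl21, a large-subunit protein, ran from 59.2 CPM in CPX 8 to 365 in CPX 4, with EA between 46.2 and 105 (−1.34, SE 0.68). Many ribosomal protein genes have processed copies in the genome, which can take up part of their reads. The median of the list was −0.42 with no scaling factor. Translation factors (34 of 36 negative, median −0.36) and proteasome subunits (28 of 30 negative, median −0.33) showed smaller differences, with EA below without overlap for 4 and 5 members against 4.98% of all genes. Without both CPX 4 and CPX 6 these medians were 0.17 and 0.11. The proteasome median was 0.005 without CPX 4 and −0.08 with no scaling factor.

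B cell genes were the clearest case of a difference that turned on 1 library. Cd79a, the signalling chain of the B cell receptor, was at 2.39, 483 and 4.98 CPM in CPX 4, 6 and 8 and at 88.1, 142 and 230.1 CPM in EA 5, 7 and 8. CPX 6 stood above all EA libraries, and CPX 4 and CPX 8 stood far below them. The log2 difference was −0.09 (SE 1.72) with all 6 libraries and 5.37 without CPX 6 (edgeR adjusted p = 0.0552). Pax5, the transcription factor that fixes B cell identity, was at 1.34, 418 and 1.26 CPM in CPX 4, 6 and 8 and at 57.7, 106 and 185 CPM in EA 5, 7 and 8. It differed by −0.27 (SE 1.91), and by 6.48 without CPX 6 (edgeR adjusted p = 0.0507). Pax5 was named for its large SD within CPX, which CPX 6 sets. A large difference and a low p without CPX 6 follow from that choice and are no support for a group difference. Marco, a scavenger receptor of macrophages in lymphoid tissue, was counted 0 times in CPX 4 and stood at 318 and 0.474 CPM in CPX 6 and 8. In EA 5, 7 and 8 it was at 107, 94.8 and 173 CPM.

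The list as a whole repeated these genes. Of 15 listed B cell genes 10 were negative, with a median of −0.18, and the median without CPX 6 was 5.37 with 13 of 15 positive. The mean list level on the log2(CPM + 1) scale went the other way with all 6 libraries, at 0.97 in EA and −0.97 in CPX. The sign with all 6 libraries thus depended on how the libraries were averaged. Class II antigen presentation genes, which B cells, macrophages and dendritic cells use, had a median of −0.21 over 8 genes, and 1.73 without CPX 6 with 8 of 8 positive. Their mean list level was 0.41 in EA and −0.41 in CPX. Plasma cell and antibody genes were mixed. Of 9 listed, 7 were negative, with a median of −0.54 that was −0.05 without CPX 6 and −2.17 without EA 8. The mean list level of these 9 genes was 0.08 in EA and −0.08 in CPX. Ighm, the heavy chain of IgM, was at 1619, 6064 and 4679 CPM in CPX 4, 6 and 8 and at 677, 824 and 2014 CPM in EA 5, 7 and 8 (log2 difference −1.81, SE 0.72, unadjusted p = 0.0426). Jchain, which joins IgM and IgA into polymers, was at 198, 1526 and 343 CPM in CPX and at 187, 75.9 and 332 CPM in EA (−1.80, SE 0.92). CPX 8 was thus high in Ighm while it was near the floor in Cd79a and Pax5. Ighg2c, an IgG heavy chain, followed Cd79a in CPX, at 0.286, 2089.8 and 7.42 CPM in CPX 4, 6 and 8 against 166, 71.5 and 1915 CPM in EA 5, 7 and 8. Ighg1, another IgG heavy chain, had the largest SD within CPX of any gene with a mean of at least 50 counts (5.90 on the log2 scale), from 3.08 CPM in CPX 8 to 8108 in CPX 6, and in EA it ran from 7.85 to 2056. Antibody segments resemble each other, and their reads may be split.

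**Figure D5:**
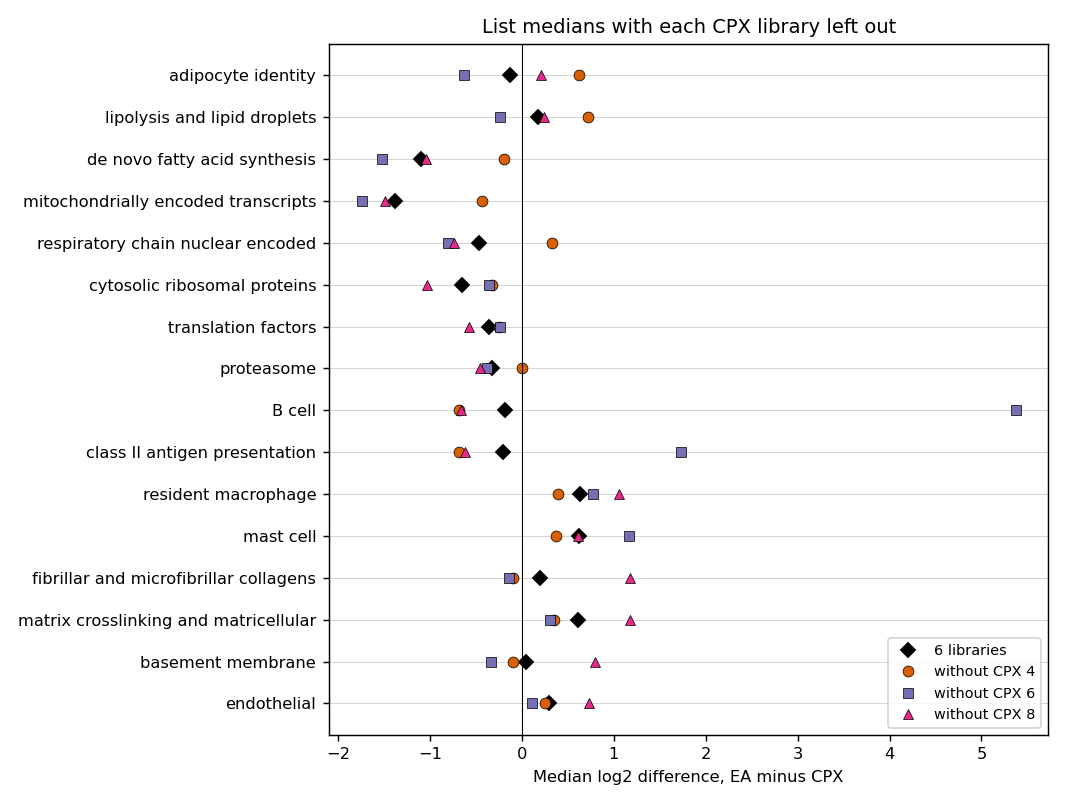
Median log2 difference (EA minus CPX, horizontal axis) of the members of each gene list (rows) with all 6 libraries (black) and with CPX 4, CPX 6 or CPX 8 left out. The B cell median moves from −0.18 to 5.37 without CPX 6, and the nuclear respiratory chain median from −0.47 to 0.33 without CPX 4.

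Resident macrophage genes were higher in EA at most members, by small amounts. Of 20 listed genes 19 were positive, against 38.6% of all genes, with a median of 0.63, and 0 had an unadjusted p under 0.05. In 3 of the 20 the EA libraries all lay above CPX (2.17% of all genes did so), among them Maf, a transcription factor of macrophages, and C1qa, a subunit of complement C1q that macrophages make. C1qa was at 187, 189 and 237 CPM in CPX 4, 6 and 8 and at 317, 242 and 598 CPM in EA 5, 7 and 8 (log2 difference 0.92, SE 0.41). EA 7 was only just above CPX 8, and EA 8 was the high library. Maf was at 97.6, 167 and 162 CPM in CPX and at 187, 188 and 273 CPM in EA (0.60, SE 0.33). Stab1, a scavenger receptor, overlapped through CPX 8 at 276 CPM and EA 7 at 254 (1.41, SE 0.66). The single negative member was Timd4, a receptor for phosphatidylserine, named after its value was seen (−0.67, SE 1.38). It was at 368 CPM in CPX 6, at 3.82 and 23.1 in CPX 4 and 8, and at 67.2 to 108 in EA. The list median was 0.40, 0.77 and 1.05 without CPX 4, 6 and 8, and 0.32 with 16 of 20 positive without EA 8. The list level was 0.98 in EA 8, while EA 7 (−0.01) lay below CPX 8 (0.19). Summed over 4 macrophage markers, the level was 334, 814 and 1108 CPM in CPX 4, 6 and 8 and 1031, 747 and 1751 CPM in EA 5, 7 and 8, and its part in these values was not tested.

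Genes that crosslink and organise the matrix leaned upwards as well. Of 23 listed members 19 were positive, with a median of 0.61, and 3 had an unadjusted p under 0.05 (0.505% of all genes in this direction). Those were Thbs2, thrombospondin 2, Postn, periostin, and P4ha1, a prolyl hydroxylase of collagen, all with EA above CPX without overlap (2.17% of all genes). Thbs2 was at 117, 55.7 and 171 CPM in CPX 4, 6 and 8 and at 194, 339 and 274 CPM in EA 5, 7 and 8 (log2 difference 1.23, SE 0.47). Postn was at 124, 206 and 198 CPM in CPX and at 463, 250.1 and 291 CPM in EA (0.93, SE 0.37), and P4ha1 differed by 0.73 (SE 0.30). The list level of CPX 8 (0.62) lay above all EA libraries (0.20 to 0.52), and CPX 4 and CPX 6 lay at −0.59 and −1.15. The list median was 0.35, 0.30 and 1.18 without CPX 4, 6 and 8, and −0.12 without both CPX 4 and CPX 6. The fibrillar collagens themselves had a median of 0.20 over 10 genes, and the sign turned with the CPX library left out. It was −0.09 without CPX 4, −0.15 without CPX 6, 1.17 without CPX 8, and −0.82 with 0 of 10 positive without CPX 4 and CPX 6. Summed fibroblast markers were at 1819, 1259 and 4472 CPM in CPX 4, 6 and 8 and at 2116 to 3256 in EA, and their part in the matrix values was not tested.

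Endothelial genes were positive for 17 of 20 members with a median of 0.30, and 1 of them, Sox18, had an unadjusted p under 0.05 (0.505% of all genes in this direction). Sox18 was at 47.4, 38.8 and 52.5 CPM in CPX 4, 6 and 8 and at 84.6, 84.3 and 63.7 CPM in EA 5, 7 and 8 (log2 difference 0.75, SE 0.25). It was the only listed endothelial gene without overlap, against 2.17% of all genes with EA above. The list median was 0.25, 0.11 and 0.73 without CPX 4, 6 and 8, and −0.19 with 4 of 20 positive without both CPX 4 and CPX 6.

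Adipocyte identity genes, in contrast, centred near 0, and their spread lay in CPX. Of 29 listed genes 14 were positive and 15 negative, with a median of −0.13 that was 0.01 with upper quartile scaling and 0.21 with no scaling factor, and 28 of 29 had a larger SD in CPX. Adipoq, the hormone adiponectin, was at 5440.5, 368 and 2316 CPM in CPX 4, 6 and 8 and at 2097, 1900.1 and 1511 CPM in EA 5, 7 and 8 (log2 difference −0.56, SE 0.89). EA lay entirely inside the CPX range, as it did for Pparg, the receptor that drives adipocyte differentiation, at 593, 52.4 and 323 CPM in CPX and at 216, 188 and 131 CPM in EA (−0.86, SE 0.78). The list median was 0.63 without CPX 4 and −0.64 without CPX 6. The mean list level was 0.16 in EA and −0.16 in CPX, so the sign also depended on how the libraries were averaged. Ucp1, the uncoupling protein of brown fat, was not among the listed genes.

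Leptin and Mest, genes tied to the expansion of fat mass, varied inside EA too. Lep was at 907, 85.7 and 1335 CPM in CPX 4, 6 and 8 and at 741, 1369 and 239.8 CPM in EA 5, 7 and 8 (log2 difference 0.01, SE 1.02). Mest was at 16.6, 3.34 and 88.1 CPM in CPX and at 9.86, 146 and 4.29 CPM in EA (0.57, SE 1.56). Both were highest in EA 7, above every CPX library, and the ranges of the groups overlapped. Egr1, an immediate early transcription factor, was at 17.7, 83.9 and 57.3 CPM in CPX and at 18.5, 29.4 and 33.9 CPM in EA (−0.96, SE 0.62). Lipolysis and lipid droplet genes had a median of 0.18 over 19 members, among them Adcy5 and Gnas, the stimulatory G protein subunit (0.82, SE 0.35). That median was 0.72 without CPX 4, and −0.24 with 4 of 19 positive without CPX 6.

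Across the 41 lists with at least 3 listed members, 22 medians were negative and 19 positive, and 0 members of any list passed the adjusted threshold. For any 1 gene, the smallest two-sided p of an exact permutation test with 3 libraries against 3 is 0.1.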

How the data were processed

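Each library has a deposited column of raw read counts per gene beside gene names and positions, per the file headers. The labels' protocols name an Illumina TruSeq kit, and HISAT2 2.0.5 and the build mm10 are named in the submitters' processing notes. How reads were counted (program, annotation, strand) is not given in the sources used here. The table lists 3958 genes, with at least 8471 counts each over the 9 libraries of the series, and the last row breaks off. Column sums are therefore not library depths, CPM values are relative to the listed genes, and less abundant genes were not analysed here. Names turned into dates (10) or left incomplete (1) were restored from gene IDs, of which 3957 were found in GENCODE M21.

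The 6 libraries were fitted in edgeR 4.0.16 under R 4.3.3 (TMM, filterByExpr, robust quasi-likelihood, 1 mean per group), with Benjamini-Hochberg adjustment over 3958 genes. Neither this filter nor one of 10 CPM in 3 libraries removed a gene, so they say nothing about stability. Replicates were not repeat deposits, with a chi-square of at least 138 per degree of freedom for every pair. The script was tested on simulated data. Alternatives were other scalings, DESeq2 1.42.0, limma 3.58.1 voom with and without quality weights, the robust option off, a minimum fold of 2, all 9 libraries in 1 fit, and each library left out.

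The members and the 52 gene lists (41 with at least 3 listed members, 5 with 1 or 2, and 6 with none) were chosen with earlier results of these data known. Genes named were the 10 of smallest p per direction with a proper symbol, since none passed, the 10 widest gaps per direction, up to 4 members of smallest p per list, the 10 largest SDs within CPX at a mean of at least 50 counts, and a fixed set (Lep, Adipoq, Fasn and others). Some are given as counts only, and others are marked as chosen after their values were seen. Acaca, Acacb, mt-Nd5 and Maf were also named after their values were seen.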

Additional observations from a re-analysis of the deposited data

How the results depend on the processing

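The count of genes past the threshold was 0 under every alternative run with edgeR or limma, and leaving out 1 library gave 0 to 0. DESeq2 called 4 genes (3 higher, 1 lower in EA). Lists with a negative median numbered 22, and 14 with upper quartile scaling, 12 with no scaling factor and 16 to 27 with 1 library left out. Genes with the larger SD in CPX numbered 3670, and 2708 to 3334 with 1 CPX library left out, where CPX had fewer libraries than EA. At an unadjusted p under 0.05, the 20 higher and 20 lower genes became 35 and 15 with upper quartile scaling and 46 and 8 with no scaling factor. The leaving out for the SD counts, and of CPX 4 and 6 together, was chosen after seeing the data.

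Of 63 genes tracked over 18 settings, 55 kept their direction and 8 reversed in some. The filters, the robust option and the minimum fold left the median over all genes and the number of positive genes (1527) unchanged. These settings are therefore no check of direction. Many of the 63 were named for a small p or for separate ranges in these libraries, which favours a kept direction. With limma voom the log2 difference was 0.076 for Adipoq, 2.54 for Cd79a, 3.18 for Pax5 and 0.76 for Timd4. With quality weights it was 4.28 for Cd79a, 5.37 for Pax5, 1.79 for Timd4, −0.17 for Lep and −0.28 for Mest. With 1 library left out in turn, it ranged from −1.08 to 0.46 for Adipoq (0.46 without CPX 4), −0.66 to 5.37 for Cd79a and −0.85 to 6.48 for Pax5 (both highest without CPX 6, and 0.22 and 0.094 without EA 5), and −0.35 to 8.88 for Marco (without CPX 8 and CPX 6). It ranged from −0.66 to 0.66 for Lep and −2.35 to 2.42 for Mest (both lowest without EA 7), and from −1.20 to 2.61 for Timd4 (without CPX 4 and CPX 6). Without CPX 4 and 6 it was 4.94 for Cd79a, 6.51 for Pax5, 1.84 for Timd4, −0.77 for Lep, −0.72 for Mest and 0.51 for Rpl21. Upper quartile scaling put Cd79a at 0.027. The cause was not tested. No paired analysis was possible because EA and CPX share only 1 replicate number (8).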

Other observations

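Outside the lists described above, several single genes had EA libraries above all CPX libraries, none past the adjusted threshold. So did 2.17% of all genes, and among the stress lists 2 of 20 chaperones and 1 of 23 antioxidant genes. Hsph1, a large chaperone of the Hsp110 family, was at 118, 138 and 81.5 CPM in CPX 4, 6 and 8 and at 142, 188 and 374 CPM in EA 5, 7 and 8 (log2 difference 1.06, SE 0.44). Hspb1, a small heat shock protein, was at 153, 23.6 and 121 CPM in CPX and at 159, 193 and 187 CPM in EA (0.86, SE 0.63). EA 5 was only just above the highest CPX library for both. The 20 listed chaperones had a median of −0.08, with 7 positive (0.05 with upper quartile scaling and 0.11 with no scaling factor). Of 23 antioxidant genes 16 were negative and 7 positive, with a median of −0.32. That median was 0.39 with 19 of 23 positive without CPX 4, and −0.02 with no scaling factor. Among them Txnrd1, thioredoxin reductase 1, was at 105, 116 and 87.3 CPM in CPX and at 149.6, 131 and 142 CPM in EA (0.45, SE 0.23). Hmox1, haem oxygenase 1, overlapped through EA 7 at 87.5 CPM and CPX 6 at 129.9 (1.27, SE 0.60).

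Shank3, a scaffold protein best known at synapses, was at 53.4, 48.7 and 140.4 CPM in CPX 4, 6 and 8 and at 146, 251 and 164 CPM in EA 5, 7 and 8 (log2 difference 1.21, SE 0.50). CPX 8 lay close to EA 5. Slc7a10, a neutral amino acid transporter of white adipocytes, was at 198, 21.1 and 210.1 CPM in CPX and at 328, 276 and 217 CPM in EA (0.93, SE 0.77). Shank3 and Slc7a10 were chosen after their values were seen. The limma quality weights, which fall where a library departs from its group, were 0.34 for CPX 4, 0.15 for CPX 6 and 1.27 for CPX 8, against 3.36, 4.31 and 1.05 for EA 5, 7 and 8.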
